A study of Homo sapiens with 4 samples.

Results

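The genes described here encode the core of the transforming growth factor beta (TGF-β) pathway: the ligands TGFB1 and TGFB2, the receptors TGFBR1, TGFBR2 and TGFBR3, the signal-carrying proteins SMAD2, SMAD3 and SMAD4, and the inhibitors SMAD7 and SKIL. They were taken by gene symbol and make up 10 of the 15221 genes with a value in the RNA-seq tables. The tables hold 2 libraries of PANC-1 and 2 of PZT-2. PANC-1 is a human cell line from a pancreatic ductal adenocarcinoma and was used untransduced. PZT-2 is a single puromycin-selected clone of PANC-1 that stably carries lentiviral shRNAs, driven by the U6 promoter, against all 3 isoforms of the histone variant H2A.Z. Both lines were grown in DMEM with 10% FBS to passages 12 to 13. Cells with a control shRNA were not analysed here, so the knockdown, the transduction and the choice of 1 clone cannot be told apart.

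The libraries held 12861465 to 15717576 estimated counts. H2AFZ, which encodes H2A.Z.1, fell by 1.47 on the log2 scale in PZT-2 (edgeR adjusted p = 6.25e-05), and H2AFV, which encodes the H2A.Z.2 isoforms, by 0.36 (adjusted p = 0.00570), although the call for H2AFV was lost without PZT-2 replicate 1 (adjusted p = 0.0602). All ductal epithelial markers but CDH1 (E-cadherin) were present in all 4 libraries. Their summed level, scaled for transcript length and library size (TPM), was 7296 to 7444 TPM in PANC-1 and 3999 to 4093 TPM in PZT-2. Most of this sum came from KRT8, KRT18 and KRT19. Of the 7 markers 5 were called, all lower in PZT-2. CDH1 was among them, with 0 and 0.527 TPM in the PZT-2 libraries (log2 fold change -3.79, edgeR adjusted p = 0.0102). Of the fibroblast markers 5 of 6 had no value in the count table, which holds only transcripts that reach about 5 counts in a library, and the other stayed under 1 TPM, and every endothelial marker stayed under 1 TPM. Of the leukocyte markers only CD68 passed 1 TPM, with 117 to 130 TPM, while PTPRC and CD3E had no value.

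TGF-β ligands are secreted in a latent form and, once released, bind the type II receptor TGFBR2, which then phosphorylates the type I receptor TGFBR1. The co-receptor TGFBR3, also called betaglycan, presents ligand to TGFBR2, above all TGF-β2. Active TGFBR1 phosphorylates SMAD2 and SMAD3, which join SMAD4 and enter the nucleus, where SKIL (SnoN) represses their target genes; SMAD7 blocks the receptor and is itself a target, so that the pathway limits its own output. In the pancreatic duct the pathway restrains epithelial growth, and in ductal carcinoma it is known both for loss of SMAD4 and for driving epithelial-mesenchymal transition.

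All 10 genes passed the filter of at least 5 counts in at least 2 libraries, which left 15101 genes. On the scale of TPM, which divides by transcript length and so allows genes to be compared, SMAD3 was the most abundant of the 10 in both lines. Its level was 196 TPM in both PANC-1 libraries and 223 and 200.2 TPM in the PZT-2 libraries, and averaged over the 4 libraries it ranked at the 94.7th percentile of the genes tested. TGFB1 came next, with 44.8 and 45.5 TPM in PANC-1 and 54.3 and 54.7 TPM in PZT-2. TGFBR2 followed with 33.8 and 36.2 TPM in PANC-1 and 51.4 and 50.3 TPM in PZT-2. These 3 genes stood apart from each other and from the remaining 7 in every library.

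Among the remaining genes the order differed between the lines. In PANC-1, SMAD7 (9.52 and 12.5 TPM), TGFB2 (11.6 and 10.0 TPM) and SMAD2 (9.95 and 10.4 TPM) came next, and their libraries overlapped, so no order among them can be given. In PZT-2, SMAD2 (11.3 TPM in both libraries) lay just above SMAD7 (10.8 and 10.9 TPM), whereas TGFB2, with 3.53 and 4.20 TPM, came last but for TGFBR3. SMAD4 lay between 6.95 and 7.96 TPM over the 4 libraries, above SKIL (4.26 to 5.70 TPM) and TGFBR1 (3.94 to 5.12 TPM). SKIL and TGFBR1 were apart in PANC-1 and overlapped in PZT-2. TGFBR3 was the lowest in every library, with 0.580 and 0.350 TPM in PANC-1 and 0.119 and 0.218 TPM in PZT-2.

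**Figure D1:**
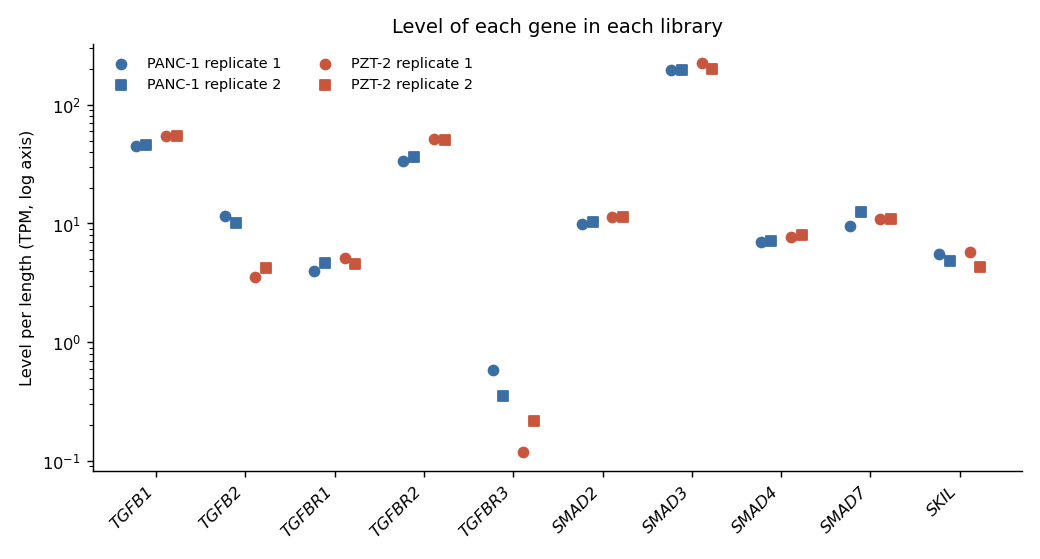
Level of each of the 10 genes in each of the 4 libraries, in TPM on a log axis, with 1 point per library (blue PANC-1, red PZT-2, circle replicate 1, square replicate 2). SMAD3 is highest near 200 TPM and TGFBR3 lowest under 1 TPM, and the red points lie clearly below the blue ones for TGFB2.

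The question put to these values was which of the genes differed between PZT-2 and PANC-1 by more than the spread between replicates. Counts were compared as normalized counts, in which each library was brought to the same effective size (edgeR's TMM), with edgeR's quasi-likelihood test and Benjamini-Hochberg adjustment over all 15101 genes. Fold changes are PZT-2 over PANC-1, and a gene is called where its adjusted p was under 0.05. Of the 10 genes, 2 were called higher (TGFB1 and TGFBR2), where 14.7% of all genes tested were, and 1 was called lower (TGFB2), where 13.7% were. The remaining 7 were not called. The libraries of the lines did not overlap for 6 of the 10 genes, against 66.3% of all genes tested. With limma-trend on log2(TPM + 1) in place of edgeR the same 3 genes were called, and of all calls 62.1% were then higher, against 51.8% with edgeR, with a median over all genes of 0.045 in place of 0.00099.

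TGFB2, one of the 3 TGF-β ligands of mammals, had the largest change of the 3 genes called. Its normalized counts were 546 and 457 in PANC-1 and 157 and 188 in PZT-2, so that the highest PZT-2 library stood well under the lowest PANC-1 library. TGFB2 fell by 1.54 on the log2 scale (standard error 0.137, adjusted p = 8.28e-04), to 0.345 times its level in PANC-1 (95% interval 0.275 to 0.433). Of all genes tested, 96.1% had a smaller change in either direction. In bulk libraries, fewer cells with TGFB2 RNA and less of it per cell cannot be told apart. The call for TGFB2 held in each of 14 alternatives, with adjusted p from 8.30e-12 to 0.0183.

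TGFB1, the ligand most widely expressed in tissues, was measured with 942 and 928 normalized counts in PANC-1 and 1079 and 1093 in PZT-2. The 4 libraries formed close pairs by line, the pair of PZT-2 being the higher. TGFB1 rose by 0.22 on the log2 scale (standard error 0.0617, adjusted p = 0.0422), which is 1.16-fold. That call was lost in 7 of 14 alternatives, among them DESeq2 (adjusted p = 0.156) and each library left out in turn. Over the alternatives the log2 fold change of TGFB1 stayed between 0.20 and 0.27. In TPM, TGFB1 exceeded TGFB2 by 3.86 and 4.54 times in the PANC-1 libraries and by 15.4 and 13.02 times in the PZT-2 libraries.

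The TGFB2 start region is printed because this gene had the largest change of those called. The promoter table of RefSeq on GRCh38.p14 holds 25 windows for the 10 genes, each from 250 bases before to 50 bases after a transcription start. The stretch shown lies upstream of the TGFB2 start at chr1:218345267-218345322, plus strand, and the capitals mark an E-box (CACGTG) and the core of a TATA box (TATAAA), which begin 49 and 29 bases before the start.
TGFB2 start region: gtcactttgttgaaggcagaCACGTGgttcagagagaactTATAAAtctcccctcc
Searched on both strands, CACGTG was present in 7.26% of all 35116 windows and TATAAA in 11.5%. Of the 25 windows, 2 held CACGTG (TGFB2 and SMAD3) and 2 held TATAAA (TGFB2 and SMAD7). The letters CAGACA, the core of the CAGA box that SMAD3 and SMAD4 bind, were in 16.9% of all windows and in 4 of the 25. Those 4 belong to TGFB2, TGFBR1 and SMAD3. The AP-1 site TGACTCA was in 4.95% of all windows and in 2 of the 25 (TGFBR2 and SMAD3). The cAMP response element TGACGTCA was in 1.85% of all windows and in 1 of the 25 (SKIL). GTCTAGAC, the palindrome bound by SMAD proteins, was in 0.202% of all windows and in none of the 25. A match is a description of letters and was not linked to binding here.

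TGFBR2, the type II receptor that binds ligand, was higher in PZT-2. Its normalized counts were 1234 and 1284 in PANC-1 and 1776 and 1744 in PZT-2, with no overlap and replicates close together. TGFBR2 rose by 0.48 on the log2 scale (standard error 0.0596, adjusted p = 0.00237), or 1.40-fold (95% interval 1.26 to 1.54). The call held in each of 14 alternatives, with adjusted p from 4.45e-06 to 0.0294. TGFBR2 lies on chromosome 3, whose genes were higher in PZT-2 as a group, and those values are given with the chromosomal neighbours.

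TGFBR1, the type I receptor kinase, had 204 and 233 normalized counts in PANC-1 and 251 and 224 in PZT-2. The libraries of the lines overlapped. TGFBR1 was not called (log2 fold change 0.12, standard error 0.124, adjusted p = 0.533), and its 95% interval ran from 0.882-fold to 1.33-fold. In TPM, TGFBR2 exceeded TGFBR1 by 8.58 and 7.80 times in PANC-1 and by 10.0 and 11.0 times in PZT-2.

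TGFBR3 gave 30.4 and 18.1 normalized counts in PANC-1 and 6.04 and 10.9 in PZT-2. The PZT-2 libraries were the lower ones, but at this depth the change was not called (log2 fold change -1.49, standard error 0.499, adjusted p = 0.0688), with a 95% interval from 0.155-fold to 0.817-fold. It was called in 1 of 13 alternatives, without PANC-1 replicate 2 (-1.83, adjusted p = 0.0238). Leaving out the other libraries gave -1.09 (PANC-1 replicate 1, adjusted p = 0.200), -1.13 (PZT-2 replicate 1, 0.240) and -1.97 (PZT-2 replicate 2, 0.109), and limma-trend on log2(TPM + 1) gave -0.32 (0.147). The value rests on 1 transcript, NR_036634, because the other 3 that the tables pair with this symbol have no value in the count table used here. Its RefSeq accession is of the noncoding kind, while GENCODE 29 pairs it with a coding model of 851 residues, so how far the value stands for the mRNA of betaglycan cannot be told.

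None of the signal-carrying SMAD genes was called. SMAD3, which binds DNA and carries most of the transcriptional response, had 9536 and 9300.4 normalized counts in PANC-1 and 10370 and 9326 in PZT-2. The libraries overlapped, and the spread between the PZT-2 replicates was wider than the gap between the lines (log2 fold change 0.064, standard error 0.0617, adjusted p = 0.488). Its 95% interval, from 0.943-fold to 1.16-fold, is the narrowest of the 7 genes not called. Without PZT-2 replicate 1 the SMAD3 value was -0.014 (adjusted p = 0.920).

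SMAD2, the other receptor-activated SMAD of this pathway, had 834 and 846 normalized counts in PANC-1 and 899 and 899.7 in PZT-2. All PZT-2 values lay above the PANC-1 values, by too little to be called (log2 fold change 0.10, standard error 0.0639, adjusted p = 0.305, 95% interval 0.962-fold to 1.19-fold). SMAD4, the common partner of both and a tumour suppressor of pancreatic ductal carcinoma, had 487 and 488 normalized counts in PANC-1 and 513 and 532 in PZT-2. The lines did not overlap for SMAD4 either, and it was not called (log2 fold change 0.10, standard error 0.0769, adjusted p = 0.386, 95% interval 0.943-fold to 1.22-fold). SMAD4 RNA was thus present in both lines. In TPM, SMAD3 exceeded SMAD2 by 17.8 to 19.7 times and SMAD4 by 25.2 to 28.8 times over the 4 libraries.

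The inhibitors SMAD7 and SKIL, both known as early targets of TGF-β signalling, were not called. SMAD7 had 204 and 264 normalized counts in PANC-1 and 214 and 215 in PZT-2. The PZT-2 libraries fell between the PANC-1 libraries (log2 fold change -0.13, standard error 0.146, adjusted p = 0.555, 95% interval 0.715-fold to 1.17-fold). Without PANC-1 replicate 2 the value turned to 0.067 (adjusted p = 0.780).

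SKIL had 316 and 269 normalized counts in PANC-1 and 309 and 232 in PZT-2, with replicates of each line further apart than the lines. Its log2 fold change was -0.11 (standard error 0.161, adjusted p = 0.661, 95% interval 0.709-fold to 1.21-fold). The sign of this value turned without PZT-2 replicate 2 (0.082, adjusted p = 0.773), without PANC-1 replicate 1 (0.0020, adjusted p = 0.994) and for the most abundant transcript alone (0.19, adjusted p = 0.894), so no direction can be given for SKIL.

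**Figure D2:**
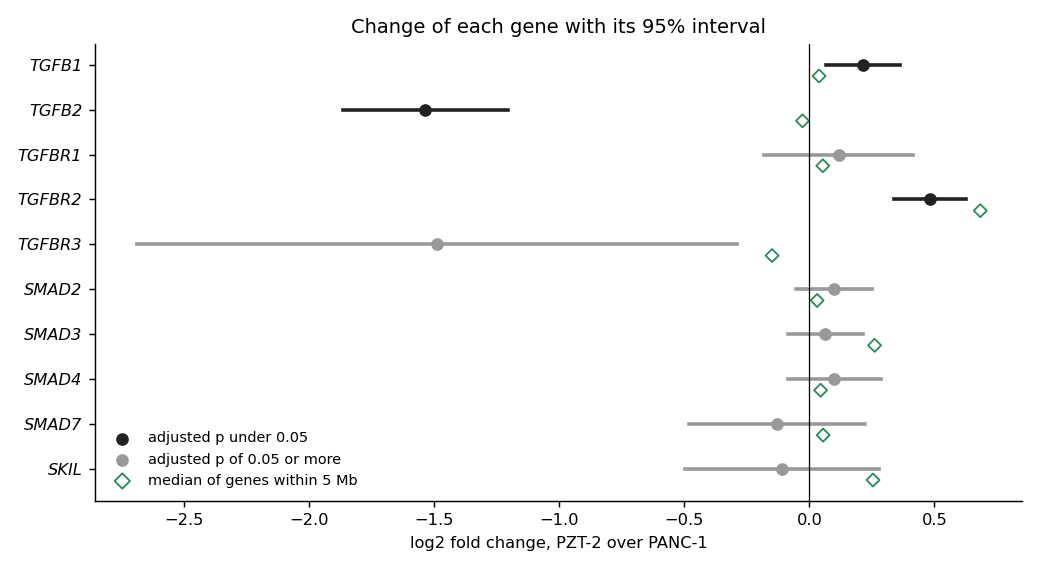
Log2 fold change of PZT-2 over PANC-1 for each gene with its 95% interval computed from the edgeR test (black, adjusted p under 0.05, grey, 0.05 or more). Open diamonds give the median of the tested genes within 5 Mb on the same chromosome. TGFB2 at -1.54 lies far to the left of its diamond at -0.027, and TGFBR2 at 0.48 lies to the left of its diamond at 0.68.

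The tables list 20 transcripts of the 10 genes with values, and 19 held at least 5% of their gene's counts in 1 line or the other. Tested as separate transcripts in edgeR, 0 of the 20 were called, where 0.148% of the 30403 transcripts tested were, and 3 had an unadjusted p under 0.05 (NM_003238 of TGFB2, NM_003242 of TGFBR2 and NM_000660, the single transcript of TGFB1). DESeq2 called 2 of the 20, NM_003238 and NM_003242, and limma-trend on log2(TPM + 1) called 0. With at least 10 counts in all 4 libraries, which left 14 of the transcripts, NM_003238 and NM_003242 passed in edgeR too.

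For 3 of the genes the transcripts differ by 1 coding exon. These exons are printed because reads over them or over the joined flanks tell the forms apart. For TGFBR2 and SMAD2 the forms also differ outside the exon, so other reads can bear on the split of counts. The form with the exon has 4605 bases against 4621 for TGFBR2, and 34526 against 10445 for SMAD2. Positions are those of GENCODE 29 on GRCh38, with the exon in capitals and 15 bases of the neighbouring exons in lower case. The TGFB2 exon, at chr1:218363334-218363417 on the plus strand, adds 28 codons to NM_001135599 and is absent from NM_003238. The TGFBR2 exon, at chr3:30623199-30623273 on the plus strand, adds 25 codons to NM_001024847 and is absent from NM_003242. The SMAD2 exon, at chr18:47870475-47870564 on the minus strand, adds 30 codons to NM_005901 and is absent from NM_001135937. It lies in the part of the protein called the MH1 domain.
TGFB2 with the exon: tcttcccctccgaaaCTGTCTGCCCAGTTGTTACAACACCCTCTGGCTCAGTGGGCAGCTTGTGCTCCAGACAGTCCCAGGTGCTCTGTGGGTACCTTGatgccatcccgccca
TGFB2 without it: tcttcccctccgaaaatgccatcccgccca
TGFBR2 with the exon: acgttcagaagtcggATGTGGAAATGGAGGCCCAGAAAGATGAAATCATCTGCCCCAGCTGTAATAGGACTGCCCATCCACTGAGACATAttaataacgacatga
TGFBR2 without it: acgttcagaagtcggttaataacgacatga
SMAD2 with the exon: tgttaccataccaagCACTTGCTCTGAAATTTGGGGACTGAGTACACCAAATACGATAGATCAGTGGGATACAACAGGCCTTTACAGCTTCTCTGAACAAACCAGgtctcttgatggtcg
SMAD2 without it: tgttaccataccaaggtctcttgatggtcg

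Transcript NM_003238 of TGFB2, which lacks its exon and encodes 414 residues, held 95.1% and 94.3% of the TGFB2 counts in PANC-1 and 87.8% and 100% in PZT-2. Its normalized counts of 519 and 431 in PANC-1 and 138 and 188 in PZT-2 followed those of the gene (log2 fold change -1.55, adjusted p = 0.0953 among transcripts). The longer form, of 442 residues, had 27.0, 26.2, 19.1 and 0 counts. For TGFBR2, NM_003242 without its exon, of 567 residues, held 79.0% and 68.5% in PANC-1 and 73.1% and 83.5% in PZT-2. It had 976 and 879 normalized counts in PANC-1 and 1298 and 1456 in PZT-2. Its change of 0.56 on the log2 scale was not called (adjusted p = 0.107). The form with the exon, of 592 residues, had 259 and 405 in PANC-1 and 478 and 288 in PZT-2, and the libraries of the lines overlapped.

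For SMAD2, the form without its exon, of 437 residues, was minor, with 1.75% and 7.59% of the SMAD2 counts in PANC-1 and 4.26% and 0% in PZT-2. NM_005901 and NM_001003652, which encode the same 467 residues, shared the rest, with 58.7% to 63.8% and 32.5% to 37.1% over the 4 libraries. For SMAD3 the full-length transcript NM_005902, of 425 residues, held 82.9% and 82.8% in PANC-1 and 91.5% and 90.3% in PZT-2, and it was not called (log2 fold change 0.19, adjusted p = 0.316). NM_001145103, of 381 residues, had 448 and 728 normalized counts in PANC-1 and 210 and 0 in PZT-2. NM_001145104, of 230 residues, had 981 and 382 in PANC-1 and 504 and 725 in PZT-2, and NM_001145102, of 320 residues, had 197, 489, 169 and 179. The replicates of 1 line thus differed by more than the lines did for NM_001145104.

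For SMAD7 the full-length NM_005904, of 426 residues, held 69.6% and 73.3% in PANC-1 and 63.4% and 59.0% in PZT-2, the rest being the shorter NM_001190822 of 211 residues (log2 fold changes -0.36 and 0.32, adjusted p = 0.597 and 0.723). For TGFBR1, NM_004612 of 503 residues held 81.2% and 68.2% in PANC-1 and 72.7% and 100% in PZT-2, with the rest given to NM_001306210, which encodes 507. For SKIL, NM_005414 held 100% and 24.5% in PANC-1 and 74.6% and 86.4% in PZT-2, and NM_001248008 held the rest. GENCODE 29 pairs both SKIL accessions with the same transcript model, of 684 residues, so this split has no meaning for the protein. Over the 10 genes, 5 transcripts were at 0 in 1 library and above 0 in its replicate. The sums per gene add the transcripts listed here, and any reads given to the transcripts without a value are not in them.

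**Figure D3:**
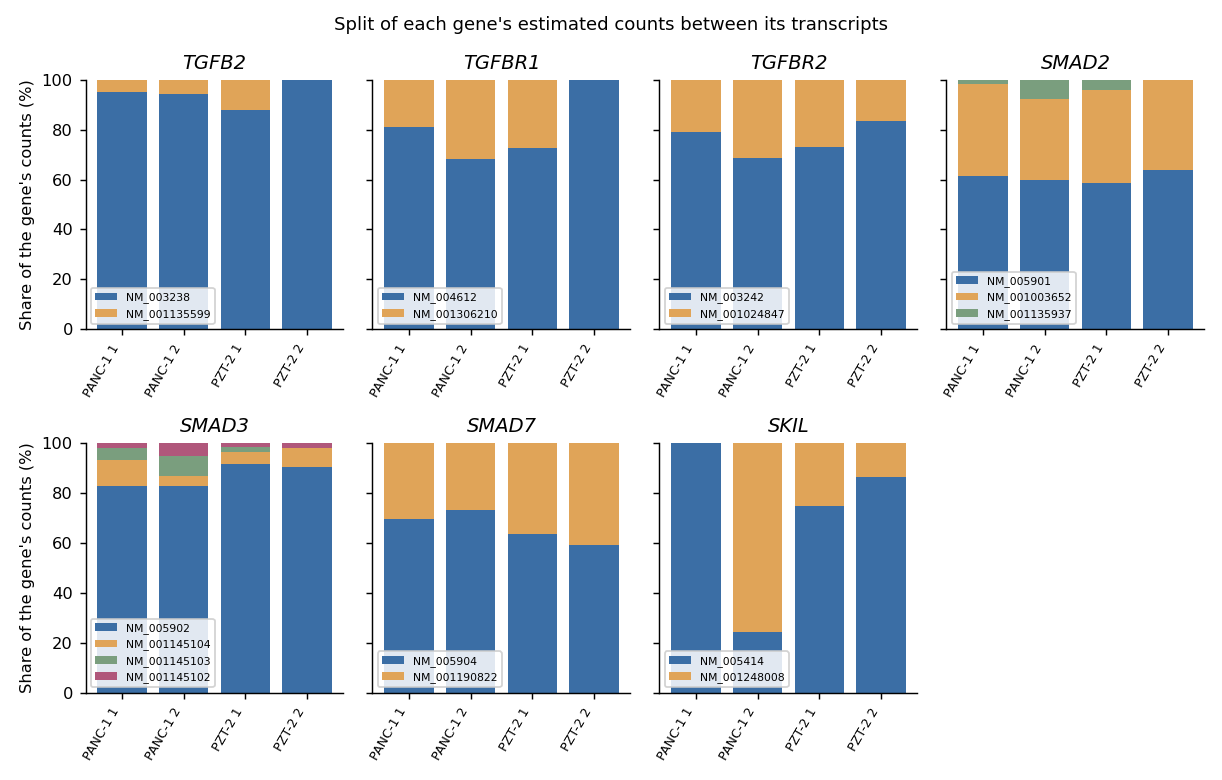
Share of each gene's estimated counts, in percent, given to each of its transcripts in each library, for the 7 genes with more than 1 transcript; each bar is 1 library and sums to 100%. SKIL differs most between replicates, with NM_005414 at 100% and 24.5% in the PANC-1 libraries, and the SMAD3 bars of PZT-2 have the taller blue part at 91.5% and 90.3%.

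The 10 genes lie on chromosomes 1, 3, 9, 15, 18 and 19, and the tested genes beside each were summarised because genes of chromosome 3 were higher in PZT-2 as a group. TGFBR2, on the short arm of chromosome 3, had 24 tested genes within 5 Mb, with a median log2 fold change of 0.68. Of these, 17 were called higher and 0 lower, and 19 of the 24 had a larger value than the 0.48 of TGFBR2. The median was 0.74 over the 8 genes within 2 Mb, 0.67 over the 67 within 10 Mb and 0.43 over the 836 other tested genes of the chromosome. The TGFBR2 change was thus inside the range of its neighbours, and the part of the chromosome in it was not tested.

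SKIL lies on the long arm of chromosome 3, where its 19 neighbours within 5 Mb had a median of 0.25, with 9 called higher and 0 lower, and 14 of the 19 had a larger value than SKIL. SMAD3, on chromosome 15, had 80 neighbours with a median of 0.26, of which 22 were called higher and 2 lower, while SMAD3 itself was at 0.064 and 55 of the 80 exceeded it. For the 26 neighbours of TGFB2 on chromosome 1 the median was -0.027, 2 being called higher and 5 lower, and 25 of the 26 had a higher value than the -1.54 of TGFB2. The 224 neighbours of TGFB1 on chromosome 19 had a median of 0.039, with 23 called higher and 37 lower. SMAD2, SMAD4 and SMAD7 lie together on chromosome 18, with neighbour medians of 0.031 to 0.055, that of TGFBR1 on chromosome 9 was 0.054, and that of TGFBR3 on chromosome 1 was -0.15. Chromosome 3 had the highest median of the chromosomes with at least 100 tested genes, and chromosome 15 followed at 0.24.

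**Figure D4:**
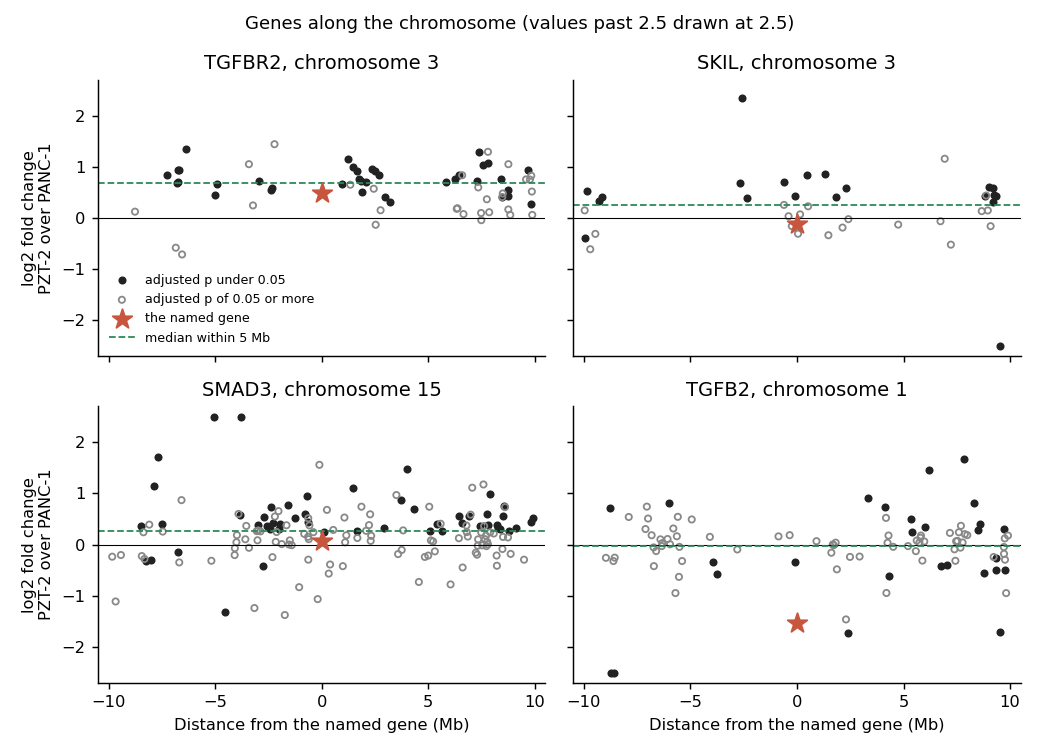
Log2 fold change of the tested genes within 10 Mb of TGFBR2, SKIL, SMAD3 and TGFB2 against their distance in Mb from that gene (star); filled points are called, open points are not, and the dashed line is the median within 5 Mb. The neighbours of TGFBR2 lie almost all above 0 around 0.68, whereas TGFB2 at -1.54 lies below 91 of the 95 genes within 10 Mb, with the dashed line at -0.027.

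Other genes of the pathway were taken from 6 lists written by role, with 103 genes, of which 89 were tested. Of these, 26 were called higher and 16 lower and 47 were not called. Thus 47.2% were called where 28.4% of all genes tested were, with a median log2 fold change of 0.15 beside 0.00099 over all genes. The lists were written with earlier results of these data known and were not matched to all genes for level. Whether the difference belongs to the pathway was not tested. The number called lower dropped to 10 when PZT-2 replicate 1 was left out and to 9 when replicate 2 was, while the number over all genes dropped from 2069 to 1107 and 850. Of the ligands and proteins of extracellular control, 7 of 19 were called higher and 4 lower, with a median of 0.25. ITGB8, a subunit of an integrin that releases latent TGF-β, rose by 1.34 (adjusted p = 0.00482) from 41.6 and 38.0 normalized counts to 109.7 and 92.0. At this low level, mean TPM of ITGB8 went from 0.577 in PANC-1 to 1.51 in PZT-2. ITGAV, another integrin subunit of this list, fell by 0.34 (adjusted p = 0.0156). LTBP1 and LTBP3, also of this list, rose by 1.00 and 0.90 (adjusted p = 3.59e-04 and 3.27e-04). Release of TGF-β was not measured. INHBA, whose dimer is activin A, rose by 1.21 (adjusted p = 0.0106), a call lost without PZT-2 replicate 1 (adjusted p = 0.0692). INHBB, whose dimer is activin B, fell by 3.06 (adjusted p = 6.00e-05), from 1072 and 1219 normalized counts to 139 and 135. FSTL3, a secreted activin antagonist, fell by 0.64 (adjusted p = 0.00458). The activin subunits INHBA and INHBB, which feed the same SMAD2 and SMAD3, thus moved in opposite directions, but at unlike levels. Mean TPM went from 0.881 in PANC-1 to 2.11 in PZT-2 for INHBA and from 46.8 to 5.81 for INHBB.

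Of the other receptors of the superfamily, 4 of 10 were called higher and 1 lower, with a median of 0.25. ENG (endoglin), a co-receptor of the same type as TGFBR3, rose by 0.55 (adjusted p = 0.00192), from 927 and 878 normalized counts to 1331 and 1312. ACVR2B, an activin type II receptor on chromosome 3, rose by 1.08 (adjusted p = 0.0323), and its call was lost without PANC-1 replicate 2 (adjusted p = 0.0685), PZT-2 replicate 1 (0.0528) and PZT-2 replicate 2 (0.181). BMPR2, the BMP type II receptor, fell by 0.25 (adjusted p = 0.0499), and was not called without any 1 of the 4 libraries (adjusted p from 0.0590 to 0.276). Of the other SMAD genes, 0 of 4 were called higher and 2 lower in edgeR, SMAD1 by -0.61 (adjusted p = 0.0192) and SMAD5 by -0.48 (adjusted p = 0.0131), which carry BMP signals. The call of SMAD1 was lost without PZT-2 replicate 1 (adjusted p = 0.0771) or replicate 2 (0.117), with DESeq2 (0.109) and for its most abundant transcript alone (-0.18, 0.839). That of SMAD5 was lost without PZT-2 replicate 2 (0.0804), for its most abundant transcript alone (0.105) and with limma-trend on log2(TPM + 1) (0.0648).

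Of 25 intracellular regulators, 4 were called higher and 4 lower, with a median of 0.10. ZFYVE9 (SARA), the anchor that brings SMAD2 and SMAD3 to the receptor, rose by 0.59 (adjusted p = 0.00307), and USP4, a deubiquitinase of TGFBR1 encoded on chromosome 3, rose by 0.54 (adjusted p = 0.00167). The SMAD phosphatase genes CTDSP1 and CTDSP2 fell by 0.50 and 0.47 (adjusted p = 0.00411 and 0.0244), and the call of CTDSP2 was lost without PZT-2 replicate 1 (adjusted p = 0.0761) or replicate 2 (0.135).

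Of 28 tested SMAD3 response genes, 8 were called higher and 5 lower, and the median of 0.081 lay near that of all genes. IGFBP3, an IGF-binding protein, rose by 4.15 (adjusted p = 4.12e-05), from 58.5 and 57.8 to 993 and 1069.8 normalized counts. ANGPTL4, a secreted inhibitor of lipoprotein lipase, rose by 2.23 (adjusted p = 5.08e-05). CDH2 (N-cadherin) fell by 1.84 (adjusted p = 2.52e-04) and COL1A1, a chain of type I collagen, fell by 1.75 (adjusted p = 4.61e-04). All 3 tested ID genes, which encode inhibitors of helix-loop-helix factors and are induced by BMP signals, were called higher. ID2 rose by 2.32 (adjusted p = 8.60e-04) and ID3 by 1.66 (adjusted p = 8.59e-05), with 524 and 560.3 normalized counts of ID3 in PANC-1 and 1684 and 1749 in PZT-2. The ID genes were thus higher in libraries in which SMAD1 and SMAD5 were lower. The other 2 genes of that SMAD list, SMAD6 and SMAD9, had positive values that were not called (0.24 and 0.73, edgeR adjusted p = 0.259 and 0.0599). Among the BMP ligand genes tested, BMP6 rose by 1.18 (adjusted p = 7.49e-04), BMP7 fell by 3.52 (0.00150) and BMP2 was not called (0.866). Mean TPM went from 23.3 in PANC-1 to 54.5 in PZT-2 for BMP6 and from 1.69 to 0.151 for BMP7. The receptor gene ACVR1 rose by 0.46 (adjusted p = 0.00554), whereas BMPR1A was not called (0.707). BMP signalling was not measured.

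**Figure D5:**
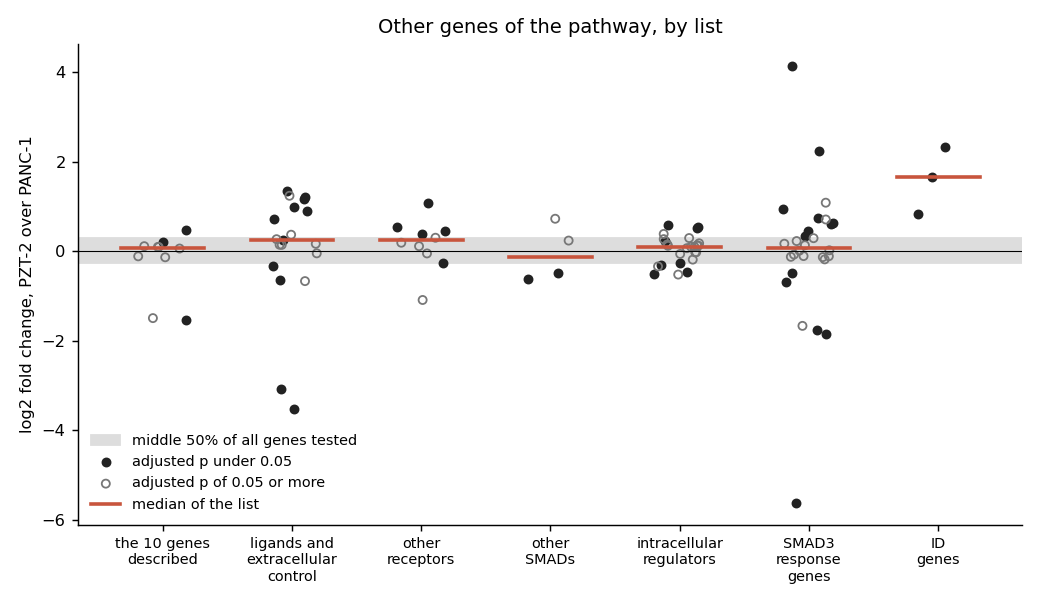
Log2 fold change of PZT-2 over PANC-1 for the 10 genes described and for the tested genes of each pathway list (filled, adjusted p under 0.05; open, 0.05 or more), with the median of each list in red and the middle 50% of all genes tested as a grey band. Most list medians lie within the band, between -0.12 and 0.25, and that of the 3 ID genes lies at 1.66.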

How the data were processed

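RNA-seq was analysed for 2 libraries each of PANC-1 and PZT-2. The authors trimmed paired reads of 76 bases with Trim Galore 0.4.1, quantified RefSeq transcripts with kallisto 0.43.0 and compared the lines with sleuth 0.29.0; the labels name hg19, and the RefSeq release and strand setting are not given in the sources used here. The estimated counts, as the authors deposited them, had been multiplied by a factor for each library (1.16, 0.935, 1.03 and 1.01), and this was undone before rounding. With it undone, 49.0% to 49.8% of low values of single-transcript genes were whole to within 0.01, against 0.635% to 2.71% as deposited. The authors' own test results in the second table were not used, only its gene symbols. A further 3925 transcripts were named by accession through RefSeq on GRCh38.p14, which also gave chromosomal order for 99.95% of tested genes, and 103 transcripts with 0.0466% of counts stayed unnamed. TPM was recomputed here from estimated counts and the deposited effective lengths.

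Counts summed per gene were tested with edgeR 4.0.16 (TMM, quasi-likelihood, Benjamini-Hochberg) in R 4.3.3, with DESeq2 1.42.0 and limma 3.58.1 as alternatives. The edgeR and DESeq2 tests were also run on simulated counts. These did not model the splitting of reads between transcripts, so they do not bear on that step. Replicates are biological per the study's methods, and they differed by 5.81 (PANC-1) and 3.36 (PZT-2) times the variance of counting alone. A two-sided exact permutation test of 2 against 2 libraries cannot go below p = 0.333 and was not used. Genes and lists were chosen with earlier results of these data known. Named pathway genes are the called ones with the 2 largest increases and 2 largest decreases per list, at a mean normalized count of at least 50 and without overlap between the lines. A few more genes of these lists are named beside them. Alternatives were RLE factors, other filters, TPM, length-scaled or deposited counts, the most abundant transcript, a replicate block and each library left out. A line left with 1 library borrowed its spread from the other line.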

Additional observations from a re-analysis of the deposited data

How the results depend on the processing

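TGFB2 stayed called lower and TGFBR2 called higher in every alternative run. The number of the 10 genes called higher went from 2 to 1, TGFB1 being lost, with DESeq2, with the most abundant transcript alone and with the replicate block (1 in each), and was 1 to 1 with each library left out; the number called lower was 1, and 1 to 2 with each library left out. Over all tested genes, same-numbered libraries did not deviate together (correlation -0.02), and the main test did not pair them. A correlation over all genes cannot exclude a shared effect on some of them. With the replicate block the standard error fell from 0.161 to 0.110 for SKIL and rose from 0.0617 to 0.0703 for TGFB1. That block left 1 gene called higher and 1 lower, and called 0 of the 20 transcripts. Of these, 2 passed with DESeq2 and 2 under the stricter filter of 10 counts in every library. The 16 pathway genes called lower became 10 with limma-trend on log2(TPM + 1), 10 with log2(TPM + 0.1) and 10 with the most abundant transcript alone, and 9 to 18 with each library left out, while over all genes the number called lower went from 2069 to 1446, 1402 and 997 in the first 3 of these settings. The 26 called higher stayed within 1.5 times. With the most abundant transcript alone, adjusted p values past 0.05 were also found for ENG (0.0543), ZFYVE9 (0.118), CTDSP1 (0.143), CTDSP2 (0.0796), INHBA (0.0513), ACVR2B (0.106), BMPR2 (0.116) and H2AFV (0.0687). The call was also lost with DESeq2 for ACVR2B (0.0771) and BMPR2 (0.123), with limma-trend on log2(TPM + 1) for ACVR2B (0.0770), BMPR2 (0.285) and CTDSP2 (0.0523), with the replicate block for ACVR2B (0.0612) and BMPR2 (0.0743), and for BMPR2 with no filter (0.0506) and on counts as deposited (0.0554). Signs turned for SMAD3 (-0.014 to 0.14 with each library left out), SMAD7 (-0.30 to 0.067) and SKIL (-0.33 to 0.082, and 0.19 for its most abundant transcript), none of them called. Medians of neighbours moved by more than the spread between replicates for TGFB2 (0.028 within 10 Mb), TGFBR1 (-0.049 within 2 Mb and 0.068 within 10 Mb), TGFBR3 (-0.046 within 2 Mb), SMAD4 (0.00038 within 10 Mb) and SMAD7 (0.082 within 2 Mb and 0.0084 within 10 Mb). The causes were not tested. TGFBR3 had no value under the stricter filter, and its depth of 6.04 to 30.4 normalized counts limits what can be called.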
